A study of Arabidopsis thaliana with 8 samples.

Results

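The plasma membrane proton pumps described here are 7 genes of the Arabidopsis thaliana AHA family, AHA1 (AT2G18960), AHA2 (AT4G30190), AHA3 (AT5G57350), AHA4 (AT3G47950), AHA5 (AT2G24520), AHA7 (AT3G60330) and AHA11 (AT5G62670), taken by identifier from a table of 27416 genes. Their ribosome footprints, fragments of mRNA covered by ribosomes and so spared by RNase, were counted on coding sequences in 4 root and 4 shoot libraries. All libraries came from seedlings of ecotype Col, 4 days old, grown in liquid medium with sucrose and harvested 3 h into the light period. From each tissue, 1 extract was made in each of 4 polysome buffers. KCl was at 50 mM in buffer A, 40 mM in B and D, and 30 mM in C, while MgCl2 was at 25 mM in A, 20 mM in B and D, and 15 mM in C. Tris was at 200 mM except in D, which had 100 mM. Detergents, DTT, DNase I and cycloheximide, which stalls ribosomes on mRNA, were common to all buffers. The 4 buffers served as the repeats of a tissue, and no label says that they were separate plant cultures, so p-values measure only the spread between these libraries.

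These pumps are P-type ATPases that spend ATP to move protons out of the cell. The resulting proton gradient and membrane voltage drive nutrient uptake through cotransporters, phloem loading, stomatal opening and cell expansion. The C-terminal end of the protein holds the pump inactive until a threonine next to its end is phosphorylated and a 14-3-3 protein binds there, while phosphatases of PP2C clade D remove that phosphate.

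Root totals lay between 1120218 and 3410266 counts and shoot totals between 3746348 and 4501213, with buffer D the smallest in each tissue. The tissue labels held against their markers. The 4 root markers summed to 1455 to 1966 CPM in root against 65.0 to 137 CPM in shoot. The 4 shoot markers summed to 158 to 264 CPM in root against 30067 to 35186 CPM in shoot. These markers were chosen with earlier results of these data known, so they are not an independent check. PRP3 alone made up 1294 of the mean root marker sum of 1689 CPM in root. Here CPM is counts per 1000000, scaled by library size and TMM factor. It is not corrected for coding length, so values of different pump genes are not set against each other as levels. Counts combine mRNA level and translation, and in whole tissue fewer cells of a type and less RNA per cell cannot be told apart.

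The comparison of tissues asked how ribosome footprints on each pump gene differ between root and shoot. AHA7 and AHA2 were higher in root, and AHA11 was lower in root, with directions and calls that held under every scaling tried. AHA1 and AHA3 were lower in root under TMM or RLE scaling, but did not pass when only library totals were used. AHA4 did not pass the test, and AHA5 was too low to be tested. Of the 6 tested pump genes, 5 passed, where 40.3% of all 15664 tested genes did: 2 were higher in root, where 17.8% of all genes were, and 3 were lower, where 22.6% were (edgeR quasi-likelihood test, Benjamini-Hochberg adjusted p under 0.05 over all genes). The median log2 fold change, root minus shoot, was -0.48 over the tested pump genes and -0.12 over all tested genes. With library totals alone 2 pump genes were higher and 1 was lower. That scaling moved the median of all genes to 0.38, and 4767 genes were then higher in root and 2687 lower, in place of 2781 and 3534.

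**Figure D1:**
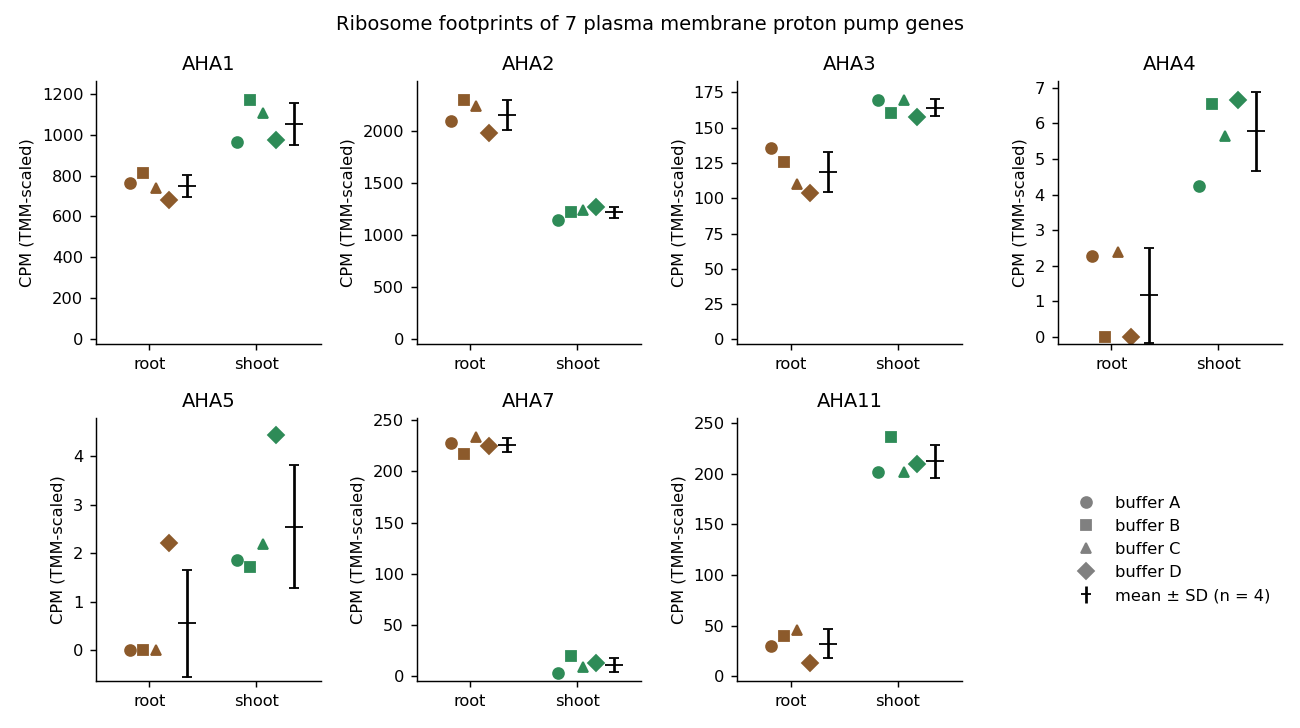
Footprint level in CPM (scaled by library size and TMM factor) of each pump gene, with 1 point per library, the buffer given by the marker shape, root left of shoot, and the mean ± SD of 4 libraries beside each group. Each panel has its own vertical axis; AHA7 lies at 217 to 234 CPM in root against 3.45 to 19.7 CPM in shoot, and AHA11 at 12.5 to 45.8 CPM in root against 201 to 236 CPM in shoot.

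AHA2 is the pump whose mutants are best known for weaker proton release from roots. It had 2097, 2299, 2239 and 1985 CPM in root libraries A, B, C and D, against 1147, 1222, 1245 and 1269 CPM in shoot libraries A, B, C and D. Every root library lay above every shoot library, and the buffers differed little within a tissue. The means were 2155 ± 142 CPM in root against 1221 ± 52.7 CPM in shoot (SD, n = 4 each), a 1.77-fold difference. Its log2 fold change, root minus shoot, was 0.82 ± 0.08 SE (edgeR, adjusted p = 1.65e-05). Within the buffers the log2 ratio of root over shoot was 0.87 in A, 0.91 in B, 0.85 in C and 0.65 in D, so all 4 buffers showed the same direction. With library totals alone the log2 fold change was 1.32.

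AHA1, which shares many functions with AHA2 and is known for mutants whose stomata fail to close, had 762, 812, 739 and 681 CPM in root libraries A, B, C and D. In shoot libraries A, B, C and D it had 962, 1168, 1107 and 971 CPM. The tissues did not overlap on this scale. The means were 748 ± 54.4 CPM in root against 1052 ± 102 CPM in shoot (SD, n = 4 each). On the log2 scale the fold change was -0.49 ± 0.09 SE (edgeR, adjusted p = 0.00128), and the within-buffer log2 ratios ran from -0.58 to -0.34. Without TMM or RLE factors, on library totals, the value was 0.0091 (adjusted p = 0.945), and the call of AHA1 was lost.

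The ratio of AHA2 to AHA1 counts within a library needs no scaling between libraries, and coding length cancels when it is compared between tissues. It was 2.75, 2.83, 3.03 and 2.92 in root libraries A, B, C and D, against 1.19, 1.05, 1.12 and 1.31 in shoot libraries A, B, C and D. Every root ratio exceeded every shoot ratio. The mean ratio was 2.88 ± 0.120 in root and 1.17 ± 0.110 in shoot (SD, n = 4 each). The difference was 1.31 on the log2 scale, a 2.48-fold higher ratio in root (two-sided exact permutation test of 4 against 4 libraries, p = 0.0286, the smallest it can give). Paired by buffer, an exact sign-flip test gave p = 0.125, the smallest that 4 pairs allow, and so could not pass. Within the buffers the root ratio exceeded the shoot ratio 2.31-fold in A, 2.71-fold in B, 2.70-fold in C and 2.23-fold in D. The 2 genes are close paralogs, and reads that match both could be placed at either, which was not tested.

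AHA7, described in root hairs and linked to their formation, was the pump gene with the largest tissue difference. It had 901, 420, 490 and 305 counts in root libraries A, B, C and D, which are 228, 217, 234 and 224.5 CPM. In shoot libraries A, B, C and D it had 13, 69, 27 and 41 counts, which are 3.45, 19.7, 8.46 and 13.0 CPM. Root libraries were nearly level (coefficient of variation 3.04%), whereas shoot libraries varied widely (61.8%). The exact Poisson intervals were 1.84 to 5.90 CPM in shoot A and 15.3 to 24.9 CPM in shoot B, so these libraries differed beyond counting error. The means were 226 ± 6.85 CPM in root against 11.1 ± 6.89 CPM in shoot (SD, n = 4 each), a 20.3-fold difference. The log2 fold change was 4.46 ± 0.34 SE (edgeR, adjusted p = 2.00e-06), and the within-buffer log2 ratios were 6.04 in A, 3.47 in B, 4.79 in C and 4.11 in D.

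Root hair markers were low in shoot too, and in sum lowest in shoot A, where AHA7 was lowest. The 5 markers COBL9, EXPA7, LRX1, PRP3 and RHD2 summed to between 1539 and 2176 CPM in root, against 58.6, 156, 111 and 157 CPM in shoot libraries A, B, C and D. Their mean sum in shoot was 6.59% of that in root, and that of AHA7 was 4.94%. All 5 markers had counts in every library apart from RHD2, which had 0 in shoot B. PRP3, a cell wall protein gene, made up 1294 of the mean root sum of 1828 CPM. As a percent of its root mean, AHA7 stood at 1.53%, 8.71%, 3.75% and 5.76% in shoot libraries A, B, C and D. COBL9, EXPA7, LRX1 and PRP3 were also lowest in shoot A, at 1.72%, 0.874%, 1.42% and 3.98%. RHD2 was lowest in shoot B instead, where AHA7 was highest, and COBL9 and RHD2 were highest in shoot D, at 6.84% and 7.07%. Genes of other root cells had no common pattern over the shoot libraries, and the low level in shoot A was not limited to root hair genes. PER64, 1 of 5 endodermis markers, had 1.06, 8.55, 7.52 and 7.61 CPM in shoot libraries A, B, C and D. It was low in A and high in B like AHA7. The 5 endodermis markers summed to 54.4, 50.1, 65.2 and 57.7 CPM in shoot libraries A, B, C and D, lowest in B. SCR made up 35.7 of their mean shoot sum of 56.9 CPM. CASP1, of the Casparian strip, ran from 2.32% in shoot C to 5.86% in shoot D. It stood at 3.19% in shoot A and 2.37% in shoot B. PIN2, an auxin carrier of the root tip, was nearly level, from 2.15% to 2.93%. The part of root hair cells in the shoot counts of AHA7 was not tested.

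**Figure D2:**
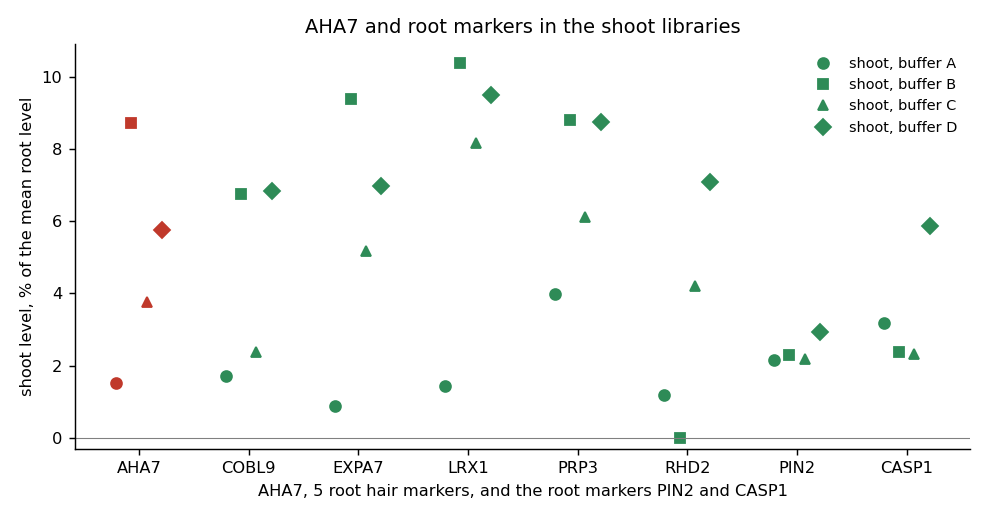
Level in each shoot library as a percent of the gene's mean root level, for AHA7 (red), 5 root hair markers and the root markers PIN2 and CASP1 (green), with the buffer given by the marker shape. AHA7 runs from 1.53% in shoot A to 8.71% in shoot B; 4 of the 5 root hair markers are also lowest in shoot A, and RHD2 is lowest, at 0, in shoot B. PER64, an endodermis marker that was low in shoot A and high in shoot B like AHA7, is not drawn.

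AHA11 was the pump gene with the largest excess in shoot among those that passed. It had 119, 77, 96 and 17 counts in root libraries A, B, C and D, which are 30.1, 39.8, 45.8 and 12.5 CPM. In shoot libraries A, B, C and D it had 201, 236, 202 and 210 CPM. The groups did not overlap, and root D was the lowest library, with an exact Poisson interval of 7.29 to 20.0 CPM that lies below the interval of 24.9 to 36.0 CPM in root A. The means were 32.0 ± 14.5 CPM in root against 212 ± 16.6 CPM in shoot (SD, n = 4 each), so that shoot was 6.63-fold higher. Its log2 fold change, root minus shoot, was -2.77 ± 0.26 SE (edgeR, adjusted p = 9.17e-06), and with a library left out it stayed between -3.03 and -2.50. RefSeq's TAIR10.1 table places AHA11 in overlap with its neighbour GTR2 (AT5G62680), a glucosinolate transporter gene, and the strand setting of the counts is not known. GTR2 was higher in root (log2 fold change 1.06 ± 0.14 SE), at 265 ± 23.2 CPM in root against 127 ± 11.7 CPM in shoot (SD, n = 4 each).

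AHA3, a pump of phloem companion cells, had 135, 126, 110 and 104 CPM in root libraries A, B, C and D, against 170, 160, 170 and 158 CPM in shoot libraries A, B, C and D. All shoot libraries exceeded all root libraries on this scale. On the log2 scale the fold change was -0.47 ± 0.14 SE (edgeR, adjusted p = 0.0186). With library totals alone it was 0.025 (adjusted p = 0.900), and the call was also lost without root C (-0.43, adjusted p = 0.0853) and without shoot C (-0.44, adjusted p = 0.0696). The 4 phloem markers SUC2, APL, PP2-A1 and SEOR1 summed to 94.2 to 135 CPM in root against 166 to 183 CPM in shoot, with none at 0 throughout a tissue. SUC2 averaged 12.2 CPM in root against 87.7 CPM in shoot, and SEOR1 81.0 CPM in root against 51.5 CPM in shoot, and their part in the difference of AHA3 was not tested.

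AHA4, described in the root endodermis, had few footprints. Root libraries A, B, C and D held 9, 0, 5 and 0 counts, and shoot libraries A, B, C and D held 16, 23, 18 and 21. At a count of 0 the exact Poisson interval reached 1.91 CPM in root B and 2.72 CPM in root D. The shoot values of 4.25 to 6.66 CPM lay above the root values of 0 to 2.38 CPM. The log2 fold change was -2.48 ± 1.17 SE and did not pass (edgeR, adjusted p = 0.121, with 0.0392 by DESeq2 and 0.0392 to 0.355 over all alternatives). With 1 library left out it ran from -3.49 to -1.86. Of 5 endodermis markers, 4 were higher in root and 1, SCR, was lower (not passed with library totals alone), and they summed to 478 to 515 CPM in root against 50.1 to 65.2 CPM in shoot. AHA4 adjoins GTR1 (AT3G47960), which had 61.0 ± 28.9 CPM in root against 162 ± 17.1 CPM in shoot (SD, n = 4 each), and their annotated spans overlap.

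AHA5 failed the filter on low counts. It had 0, 0, 0 and 3 counts in root libraries A, B, C and D, against 7, 6, 7 and 14 in shoot libraries A, B, C and D. Over the pooled libraries and relative to their totals, without TMM factors, the ratio of shoot over root was 5.55. Its exact interval of 1.75 to 28.3 covers counting error only. On that measure AHA4 had a ratio of 2.73, with an interval of 1.53 to 5.22 that likewise covers counting error only. The groups of AHA5 overlapped, because AHA5 in root D, at 2.21 CPM, lay above shoot A, B and C.

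**Figure D3:**
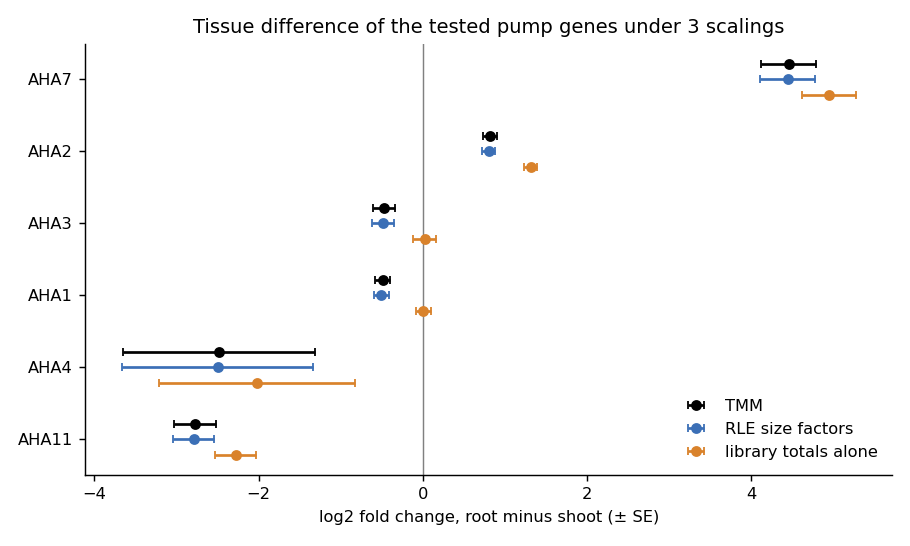
Log2 fold change, root minus shoot, ± SE of the 6 tested pump genes under TMM factors (black), RLE size factors (blue) and library totals alone (orange). AHA7 and AHA2 lie right of 0 and AHA11 and AHA4 left of 0 under each, while AHA1 and AHA3 sit at -0.49 and -0.47 under TMM factors and at 0.0091 and 0.025 with library totals alone.

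The make-up of pump footprints differed between the tissues. Of all counts on the 7 genes, AHA2 held 65.7 ± 0.868% in root and 45.8 ± 1.97% in shoot (SD, n = 4 each here and below, shares of counts not corrected for coding length). AHA1 held 22.8 ± 0.679% in root and 39.4 ± 2.01% in shoot. AHA7 made up 6.90 ± 0.514% in root and 0.410 ± 0.241% in shoot, and AHA11 0.959 ± 0.403% in root and 7.96 ± 0.439% in shoot. AHA3 held 3.62 ± 0.386% in root and 6.17 ± 0.473% in shoot. AHA4 held at most 0.253% and AHA5 at most 0.169% of a library's pump counts. The share of AHA5 overlapped between the tissues, and no other share did. That of AHA4 was 0% to 0.0708% in root against 0.171% to 0.253% in shoot, on few counts. The shares of a library add up to the whole, so a larger share of AHA2 in root lowers the others. These separations are therefore not independent tissue differences. In CPM scaled by library totals alone, AHA1 averaged 880.8 in root against 880.3 in shoot, and AHA3 139.7 in root against 137.5 in shoot. The calls of AHA2, AHA7 and AHA11 between tissues were kept under that scaling. Summed, the 7 genes reached 0.365% to 0.410% of a root library and 0.208% to 0.232% of a shoot library, or 3282 ± 207 CPM in root against 2669 ± 141 CPM in shoot on the TMM scale.

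**Figure D4:**
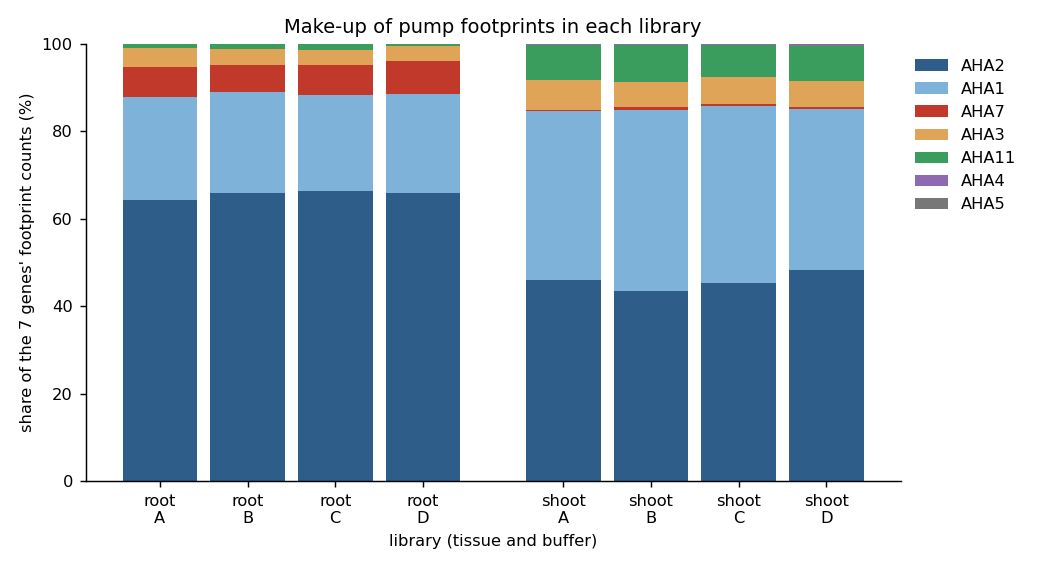
Share of each pump gene in the footprint counts of the 7 genes, in percent, with 1 stacked bar per library, the 4 root libraries left of the 4 shoot libraries. AHA2 takes 64.4% to 66.4% of a root bar and 43.4% to 48.2% of a shoot bar; AHA7 is visible in root and AHA11 in shoot.

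The comparison of buffers asked whether footprint counts of a pump gene depended on salt or Tris in the extraction. No pump gene passed any buffer test, and few genes of the table did. For any difference among the 4 buffers, 0 of 6 tested pump genes were called, where 0.0575% of all genes were (edgeR). An unadjusted p under 0.05 was found for 0 pump genes and for 121 of 15664 genes. The smallest unadjusted p among the pump genes was 0.261, for AHA1 (edgeR). These numbers over all genes are so low that 0 of 6 does not set the pump genes apart. For buffer A minus C, the highest against the lowest salt, 0 of 6 pump genes and 0% of all genes were called, and 253 of 15664 genes had an unadjusted p under 0.05. That log2 fold change was -0.08 (95% interval -0.36 to 0.20) for AHA1 and -0.11 (95% interval -0.36 to 0.15) for AHA2. The intervals were wider for AHA7 (-1.25 to 0.65) and AHA11 (-1.04 to 0.46), and widest for AHA4 (-3.52 to 3.27).

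For buffer D minus B, low against high Tris at equal salt, 0 of 6 pump genes were called, where 0.0447% of all genes were. An unadjusted p under 0.05 was found for 0 pump genes and for 312 of 15664 genes (edgeR). AHA1 had a log2 fold change of -0.26 (95% interval -0.54 to 0.022; unadjusted p = 0.0668), with 681 CPM in root D and 812 CPM in root B, and 971 CPM in shoot D and 1168 CPM in shoot B. AHA2 had -0.08 (95% interval -0.33 to 0.18) and AHA11 -0.60 (95% interval -1.37 to 0.18). The term for a tissue difference that moves with salt called 0 of 6 pump genes and 0% of all genes, with 0 pump genes and 618 of all genes at an unadjusted p under 0.05. It was 0.023 per 10 mM MgCl2 for AHA2 (95% interval -0.51 to 0.56) and 0.92 for AHA7 (95% interval -1.35 to 3.19). DESeq2 called 0 genes for buffer A minus C and for this term, and no pump gene in any buffer test; for AHA4 it gave no adjusted p among all buffers.

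**Figure D5:**
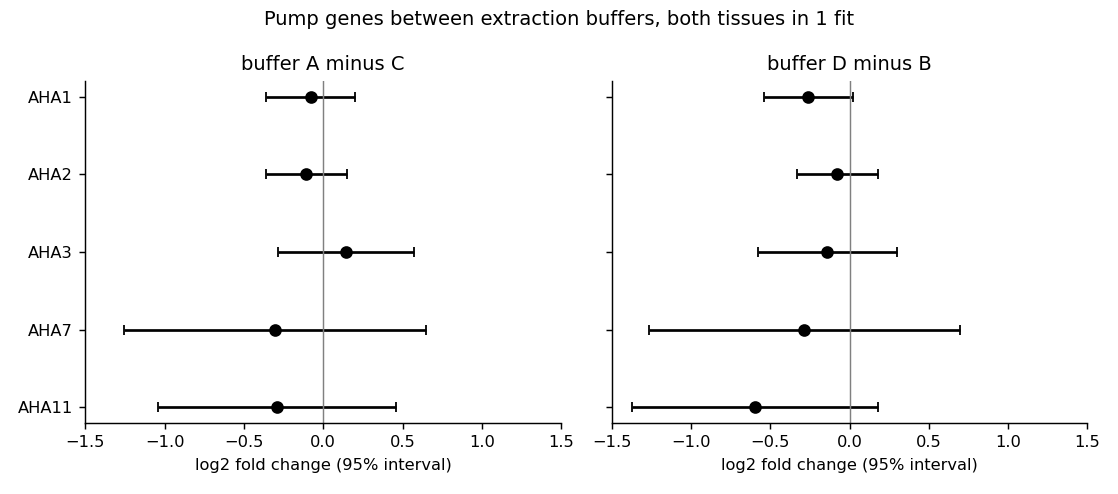
Log2 fold change with its 95% interval for 5 pump genes (AHA4, with far wider intervals, is not drawn) between buffers A and C (left) and between buffers D and B (right), from 1 fit of both tissues. Every interval includes 0; those of AHA1 and AHA2 are narrowest and those of AHA7 and AHA11 widest.

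The other AHA isoforms were near the limit of counting. AHA6, AHA8 and AHA9 are known from anthers and pollen, and AHA10 from the seed coat, where it acts at the vacuole. None of the 4 passed the filter. AHA8 averaged 0.747 ± 0.863 CPM in root against 0.956 ± 1.11 CPM in shoot, and AHA9 1.22 ± 1.26 CPM in root against 1.73 ± 1.25 CPM in shoot (SD, n = 4 each). AHA10 had 0 counts in root and 19, 2, 2 and 13 counts in shoot libraries A, B, C and D. Set against a floor of 3 counts over the root libraries, its pooled shoot level was 8.23-fold higher, leaving out the error of the shoot counts. The ratio was 5.38-fold without shoot A and 4.75-fold without root A, the deepest root library. In shoot B and C its 0.570 and 0.627 CPM lay below the level of 3 counts in root A, 0.758 CPM.

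Of 12 listed 14-3-3 genes, whose proteins bind and activate the phosphorylated pump, 11 were tested, 8 passed as higher in root and 1 as lower, and 2 did not pass, with a median log2 fold change of 0.57 beside -0.12 over all genes. Over all genes 17.8% were higher and 22.6% lower. With library totals alone 10 of the 11 were higher and 1 lower, where 30.4% of all genes were higher and 17.2% lower. GRF1 had 903 ± 66.1 CPM in root against 565 ± 61.5 CPM in shoot (log2 fold change 0.68 ± 0.09 SE), and GRF8 451 ± 46.1 CPM in root against 308 ± 14.2 CPM in shoot (0.54 ± 0.10). GRF3 had 566 ± 20.5 CPM in root against 581 ± 48.8 CPM in shoot and did not pass (adjusted p = 0.802, edgeR), but with library totals alone it did, at 0.46. GRF11, also named ROOT HAIR SPECIFIC 5 in RefSeq, was higher in root by 1.97 ± 0.29, and GRF9 was lower, at -1.35 ± 0.15.

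Of 9 listed PP2C clade D phosphatases, 8 were tested, 2 passed as higher in root and 1 as lower, and 5 did not pass, with a median log2 fold change of 0.35. These shares are near those over all genes, 17.8% higher and 22.6% lower. The lower gene, APD7 (AT5G02760), had the widest gap of the regulator lists among genes with counts in both tissues: 2.51 ± 2.14 CPM in root against 198 ± 18.6 CPM in shoot (SD, n = 4 each; -6.28 ± 0.36 SE, edgeR adjusted p = 2.40e-07). APD5 (AT4G33920) was higher in root at 1.10 ± 0.36, a call lost in 6 of the 8 fits without 1 library, and AT3G17090 at 0.74 ± 0.25, a call lost in all 8. APD6 (AT4G38520) had 21.5 ± 13.5 CPM in root against 34.4 ± 5.22 CPM in shoot (adjusted p = 0.157). The 6 genes of the SAUR19 subfamily, small auxin-induced proteins that inhibit these phosphatases, had 0 counts in root and 156 in shoot together, and none passed the filter. Their sequences are alike, so counts of single members are uncertain. Against a floor of 3 counts over the root libraries, pooled shoot levels were 1.83-fold (SAUR23) to 9.84-fold (SAUR20) higher. That leaves out the error of the shoot counts, and lower levels in root could have been missed. SAUR20, SAUR21 and SAUR24 averaged 3.18 ± 1.80, 1.94 ± 0.720 and 3.18 ± 1.61 CPM in shoot (SD, n = 4).

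Of 9 listed kinases, receptors and a chaperone that act on the pumps, 8 were tested, 3 passed as higher in root and 3 as lower, and 2 did not pass, with a median of -0.20 beside -0.12 over all genes, of which 17.8% were higher and 22.6% lower. With library totals alone 3 were higher and 1 lower. PKS5, a kinase that inhibits AHA2, was higher in root, at 43.8 ± 14.4 CPM in root against 8.87 ± 3.46 CPM in shoot (2.31 ± 0.32 SE). FER, the receptor kinase of RALF peptides, was higher by 0.54 ± 0.12, and PSY1R, a peptide receptor that phosphorylates AHA2, by 1.16 ± 0.34, a call lost in 6 of the 8 fits without 1 library. BRI1, the brassinosteroid receptor, was lower in root at -0.88 ± 0.16, and at -0.38 with library totals alone, where it did not pass (adjusted p = 0.0752). J3, a chaperone that represses PKS5, had 258 ± 23.7 CPM in root against 308 ± 12.3 CPM in shoot (adjusted p = 0.113).

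Of 4 listed genes for binding partners and trafficking, 3 were tested and 1 was higher in root, where 17.8% of all genes were. That was PPI1, the proton pump interactor, with 345 ± 26.6 CPM in root against 209 ± 14.7 CPM in shoot (0.72 ± 0.12 SE, edgeR adjusted p = 0.000752). AT5G06970 had 73.6 ± 25.4 CPM in root against 72.4 ± 9.32 CPM in shoot, and RIN4, an immune regulator that binds AHA1, 10.8 ± 8.71 CPM in root against 15.0 ± 2.43 CPM in shoot. Of 4 genes on the blue light route that activates pumps in guard cells, 3 were lower in root and 1 was higher, where 22.6% of all genes were lower and 17.8% higher. PHOT1 and PHOT2, the phototropins, had log2 fold changes of -2.79 ± 0.21 and -5.29 ± 0.35, and AT4G18950 had 1.41 ± 0.23. BLUS1, with 0 counts in root, had a level at least 16.5-fold higher in shoot, with the floor of 3 counts over the 4 root libraries, and at least 9.50-fold higher without root A. The median was -4.04, or -3.42 with BLUS1 at its bound. The 4 guard cell markers summed to 0 to 3.03 CPM in root against 12.9 to 30.0 CPM in shoot, with 3 of them at 0 in all root libraries, and the part of guard cells in these values was not tested. No gene of these regulator lists was called in a buffer test.

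Likeness to other genes was measured as the distance between centred log2(CPM + 0.5) values over the 8 libraries, among 10964 genes with at least 10 CPM on average. Libraries of a tissue share depth and scaling, so this is a description. Nearest to AHA2 were PHOS34 (AT4G27320, distance 0.110), AT5G20950 (0.168) and PLAT2 (AT2G22170, 0.169). PHOS34 had 126 ± 10.4 CPM in root against 72.3 ± 3.86 CPM in shoot (SD, n = 4 each). Nearest to AHA1 were AT1G08360 (0.162), AT1G73230 (0.175) and AT5G19760 (0.194). Nearest to AHA7 were AT1G30870 (0.540), RHS19 (AT5G67400, 0.607) and AT5G57625 (0.620), and RHS19, named for root hair specificity in RefSeq, had 658 ± 31.3 CPM in root against 42.6 ± 23.2 CPM in shoot (SD, n = 4 each).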

How the data were processed

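The authors deposited raw footprint counts per gene on coding sequences, 1 column per library, without normalization. The submitters' processing notes name Bowtie2, STAR 2.5.1b and TAIR10, without roles. The counting program, the strand setting and the handling of reads that match several genes were not found in the sources used here, so reads from stretches that pump genes share may be counted at either gene. Symbols came from RefSeq's TAIR10.1 table, which matched 26719 of 27416 identifiers.

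Libraries were grouped by the tissue and buffer in their titles. Counts were tested in R 4.3.3 with edgeR 4.0.16: filterByExpr by tissue (minimum count 10, minimum total 15, which kept 15664 genes), TMM factors, and quasi-likelihood F tests in a model of tissue plus buffer with 3 residual degrees of freedom. P-values were adjusted by Benjamini-Hochberg over all 15664 genes and called at 0.05. Standard errors are the absolute log2 fold change divided by the square root of F. Intervals of fold changes are 95% intervals from those errors. CPM is counts per 1000000 of the tested genes' total times the TMM factor. Poisson intervals of single libraries are exact, at 95%, and cover counting error only. The tissue by salt term came from a fit with tissue, numeric MgCl2, numeric Tris and tissue by MgCl2, given per 10 mM MgCl2. KCl was in a fixed proportion to MgCl2, so the trend is equally one with KCl. Levels per codon had been planned, but coding length was not used here, so shares are of counts. The same holds for choosing AHA2 and AHA1 as the highest members. Alternatives were RLE size factors, library totals alone, no filter, DESeq2 1.42.0, no buffer term, and each library left out. The procedure was tested on simulated counts.

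The pump genes, the lists and the tests were chosen with earlier results of these data known. From each list the 3 genes with the highest mean CPM were named, and every gene that passed with an absolute log2 fold change of at least 1 and at least 10 CPM in the higher tissue.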

Additional observations from a re-analysis of the deposited data

Results flagged for a closer look

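AHA5 in root had 3 counts in buffer D, or 2.21 CPM, and 0 in the other root libraries. Among 18 groups of 4 libraries examined for the pump genes, their sum and the AHA2 to AHA1 ratio, this was the one past Dixon's 95% limit, which chance passes in about 5% of groups. With 0 in the other 3 libraries any single count would pass that limit, so the value shows no more than these 3 counts in the smallest library.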

How the results depend on the processing

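The calls and directions of AHA2, AHA7 and AHA11 between tissues were kept in all 13 alternatives each. With library totals alone the values of AHA1 (0.0091), AHA3 (0.025) and GRF3 (0.46) changed sign, a shift all genes share under that scaling. They were not the only ones. The median of the kinases, receptors and chaperone moved from -0.20 to 0.30, and that of the binding partners from -0.023 to 0.47. Without the buffer term the tissue test called 7019 genes. The AHA2 to AHA1 difference, paired by buffer (replicate block), was again 1.31, with an exact sign-flip p of 0.125, the smallest that 4 pairs can give. Any-buffer calls over all genes numbered 9, but 14 with library totals alone, 23 without the filter and 32 with DESeq2. Calls for buffer D minus B numbered 7, but 2 with RLE size factors, 15 without the filter and 18 with DESeq2. The salt interaction had 0 calls, and 2 without the filter. With each library left out these counts ran from 0 to 13, from 0 to 17 and from 0 to 7. None of the 287 recomputed pump values in the buffer tests was called. AHA4 and AHA5 had at most 23 counts in any library, which limits their precision in both tissues. The ratios of AHA10 and BLUS1 to the floor, without each library, were chosen after seeing the data.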
